A study of Bos taurus with 34 samples.

Results

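Levels of 9 genes of fatty acid oxidation and its regulators were followed in single bovine preimplantation embryos across genotype, stage and sex. They were CPT1A and CPT2 of the carnitine shuttle, ACADVL, ACADM, HADHA and HADHB of the mitochondrial beta-oxidation spiral, and the nuclear receptors PPARA, PPARD and PPARG, chosen by name as rows of the deposited tables. All 9 were among the 18442 genes of the blastocyst table, and 8 were among the 14878 genes of the morula table, of 18826 genes over both. PPARG was not analysed here in morulae. Each embryo was sequenced by itself after poly(A) selection. The embryos were 9 knockout blastocysts (2 male, 7 female), 17 control blastocysts (9 male, 8 female), 4 knockout morulae (1 male, 3 female) and 4 control morulae (3 male, 1 female). Knockouts are labelled CSF2KO in the titles, while the series title names CSF2RA, which encodes the receptor chain that binds the cytokine CSF2. One growth and treatment protocol covers every embryo, knockout and control. It states culture in vitro with recombinant Wnt5A, whereas in utero stands in the series title, and the labels do not settle which holds. Control blastocyst 72 is male by its title and female by its column heading, and was taken as male.

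Long-chain fatty acids enter mitochondria through the carnitine shuttle and are then shortened in repeated rounds of dehydrogenation, hydration, a second oxidation and thiolytic cleavage. PPARs are nuclear receptors that bind fatty acids and their derivatives, pair with RXR and raise transcription of many genes of fatty acid use and storage. Bovine oocytes and embryos hold large lipid stores, and inhibition of carnitine transfer is known to impair oocyte maturation and early cleavage in several mammals.

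The libraries held few reads, which limits every value below. Blastocyst libraries held 44879 to 17598170 reads in genes, with a median of 254758 in knockouts and 878069 in controls. Morula libraries held 43679 to 1526852 reads, with a median of 87893 in knockouts and 314121.5 in controls. The 9 genes together had 1019 reads in knockout blastocysts, 7197 in control blastocysts, 74 in knockout morulae and 765 in control morulae, and 4001 of the control blastocyst reads came from control 37. The libraries in doubt for depth or composition are knockout blastocyst 57, knockout morulae 21 and 49, and control blastocyst 12. CSF2RA had 2 reads in knockout blastocysts and 2 in control blastocysts, so the label could not be checked through that gene. Trophectoderm markers summed to medians of 22600 CPM (reads of the genes over all reads in genes of a library, scaled to 1e+06) in knockout blastocysts, 27700 in control blastocysts, 7290 in knockout morulae and 21200 in control morulae, and all 13 measured markers of this list were read in both groups of morulae.

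RPKM, reads scaled for gene length and library size, were calculated by the authors over the whole genomic span of a gene, introns included, so levels are set side by side between embryos and not between genes. A limma-trend fit on log2(RPKM + 1) with sex as a term called 0 of 6283 genes for genotype in blastocysts, a background of 0%, and 173 genes (2.75%) had an unadjusted p under 0.05. In morulae it called 0 of 5021 genes, again 0%, and 345 genes (6.87%) had an unadjusted p under 0.05. A gene was tested if it reached 1 RPKM in at least 9 blastocysts or 4 morulae, the sizes of the smaller groups. ACADVL, CPT2 and HADHB passed in blastocysts, and CPT1A, CPT2, ACADVL and HADHA passed in morulae. The others were fitted in a run without the filter. Because the genes were picked with earlier results of these embryos known, their genotype differences are given as descriptions. The adjusted p from limma ran from 0.885 to 0.998 over the 9 genes in blastocysts and from 0.655 to 0.996 over the 8 genes in morulae. In bulk embryo RNA, fewer cells of a type and less RNA per cell cannot be told apart.

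**Figure D1:**
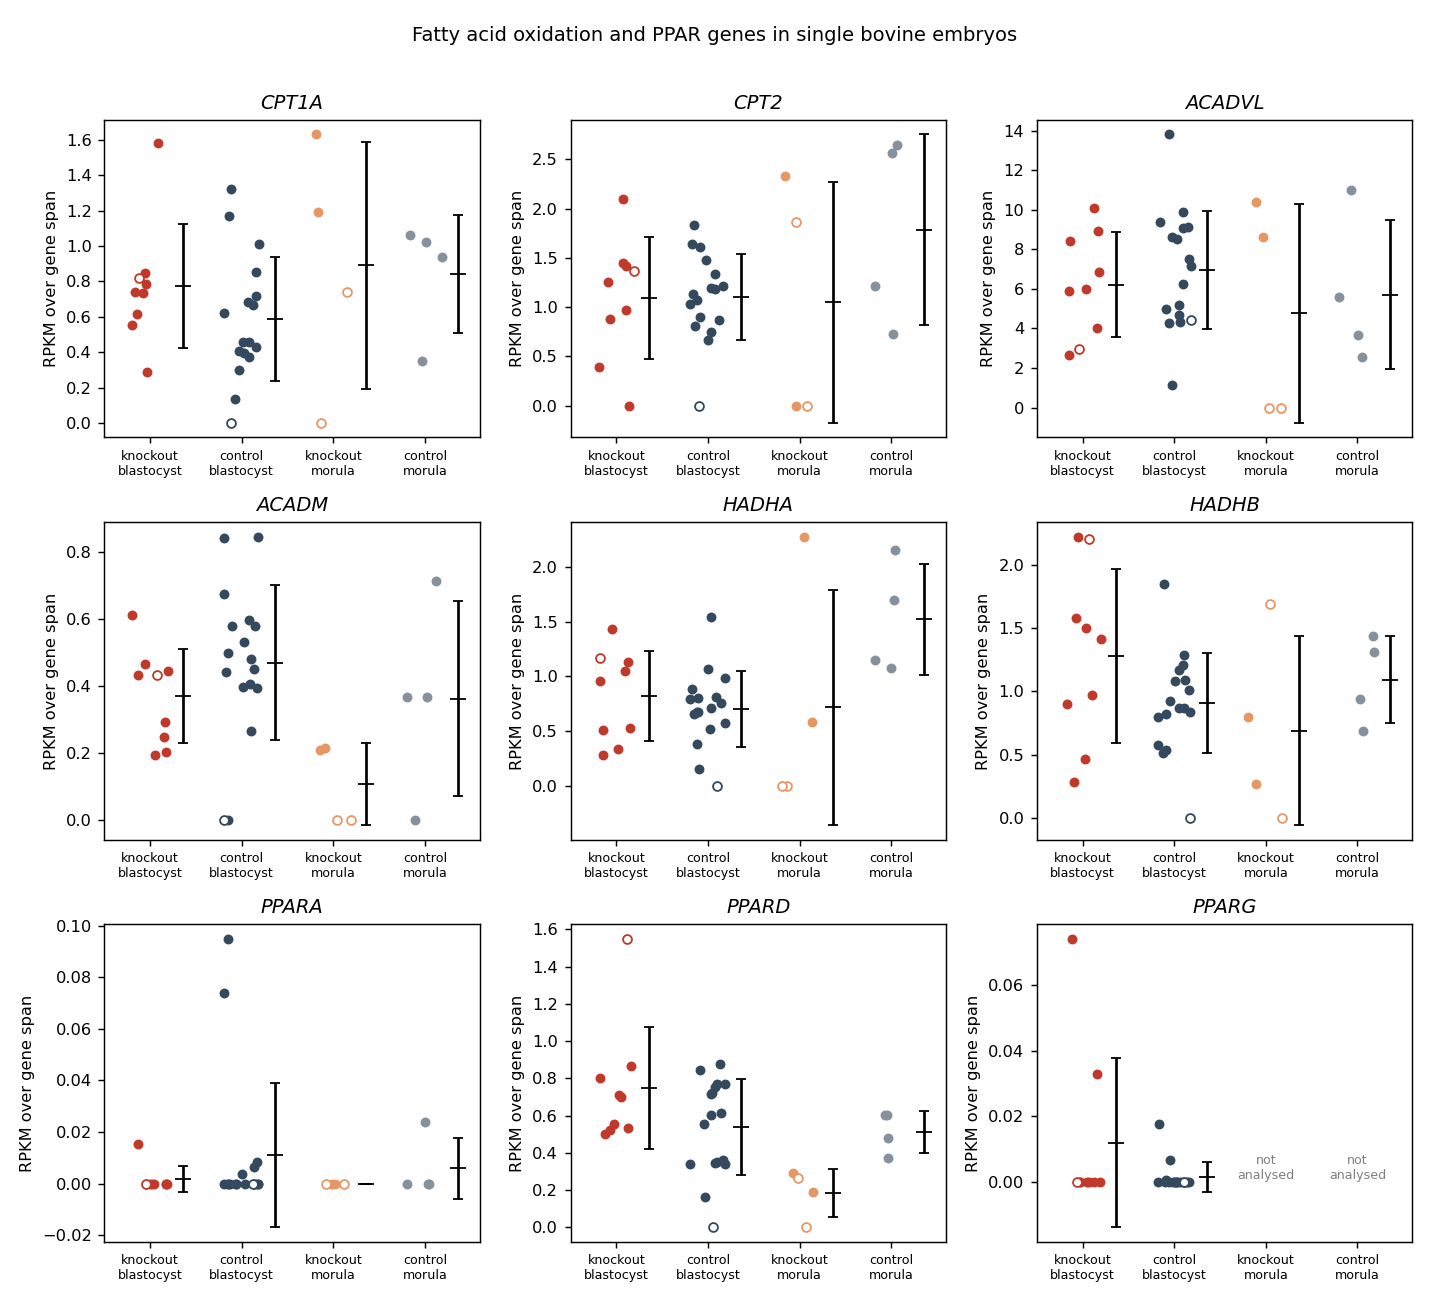
RPKM over the gene span (vertical axis) of each gene in every embryo, by genotype and stage; points are embryos, open circles are the 4 libraries in doubt, and the bar to the right of each group is its mean ± SD. The groups of blastocysts overlap for every gene, as for each of the 18442 genes of that stage (0% without overlap). PPARD in morulae is the one panel where every knockout value lies below every control value of the same stage. Yet 3 reads in knockout libraries 21 and 49 would lie above those controls.

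CPT1A and CPT2 carry the carnitine shuttle. CPT1A (ENSBTAG00000021999, chromosome 29, 46164784 to 46225440, ARS-UCD1.2), the outer-membrane carnitine palmitoyltransferase that malonyl-CoA inhibits, ran from 0.288 through a median of 0.738 to 1.58 RPKM in knockout blastocysts. In control blastocysts it ran from 0 through a median of 0.460 to 1.32 RPKM. Of the knockouts, 8 of 9 lay above the control median, a placement shared by 2.03% of the 13339 genes with at least 20 control reads, but the groups overlapped over most of their range. The mean was 0.774 ± 0.349 RPKM in knockout blastocysts and 0.588 ± 0.351 RPKM in control blastocysts (SD, n = 9 and 17), a log2 change of 0.17 ± 0.14 (SE). Knockout blastocyst 75 was the highest of all blastocysts, and without it the log2 change was 0.06. Control blastocyst 12 was listed at 0, and without it and knockout 57 the change was 0.10 ± 0.13.

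In knockout morulae CPT1A was 1.19 RPKM in embryo 1, 1.63 in embryo 5, 0 in embryo 21 and 0.742 in embryo 49. Control morulae held 1.06 RPKM in embryo 39, 0.349 in embryo 41, 0.940 in embryo 54 and 1.02 in embryo 73. Knockout morulae thus held both the highest and the lowest values, and the 0 came from a library in doubt. The means were 0.891 ± 0.697 RPKM in knockout morulae and 0.841 ± 0.332 RPKM in control morulae (SD, n = 4 each), from 23 reads and 156 reads in all.

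CPT2 (ENSBTAG00000014649, chromosome 3, 93032987 to 93057118), the inner-membrane partner that returns the acyl group to CoA in the matrix, differed little between genotypes in blastocysts. It ran from 0 through 1.25 to 2.10 RPKM in knockout blastocysts and from 0 through 1.13 to 1.83 RPKM in control blastocysts (lowest, median, highest). The 0 among knockouts was embryo 4, a library of 122766 reads, and the 0 among controls was embryo 12. The means were 1.09 ± 0.622 RPKM in knockouts and 1.10 ± 0.434 RPKM in controls, a log2 change of 0.03 ± 0.18 with a 95% interval of −0.33 to 0.40. The sign of so small a change turned when control 12 was left out (−0.05).

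In knockout morulae CPT2 was 2.33 RPKM in embryo 1, 0 in embryos 5 and 21, and 1.86 in embryo 49. In control morulae it was 1.21 RPKM in embryo 39, 0.730 in embryo 41, 2.65 in embryo 54 and 2.56 in embryo 73. The floor of 3 reads stood at 1.03 RPKM in embryo 5, above control 41, and at 3.17 in embryo 21, above every control. Both groups were spread widely and overlapped, and the log2 change of −0.43 ± 0.59 became 0.47 without control 73 and −1.33 without knockout 1.

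ACADVL and ACADM are acyl-CoA dehydrogenases for the first oxidation, of very-long-chain and medium-chain substrates. ACADVL (ENSBTAG00000003072, chromosome 19, 26934465 to 26940043) was read in all 26 blastocysts, control 12 included. It ran from 2.65 through 6.0 to 10.1 RPKM in knockout blastocysts and from 1.16 through 7.13 to 13.8 RPKM in control blastocysts. The groups overlapped almost fully, with means of 6.21 ± 2.65 RPKM in knockouts and 6.96 ± 2.98 RPKM in controls, a log2 change of −0.03 ± 0.28 (95% interval −0.60 to 0.53). In knockout morulae ACADVL was 8.63 RPKM in embryo 1, 10.4 in embryo 5, and 0 in embryos 21 and 49. Control morulae held 5.61 RPKM in embryo 39, 2.53 in embryo 41, 11 in embryo 54 and 3.69 in embryo 73. The 2 knockouts at 0 were the libraries in doubt, where the floor of 3 reads stood at 13.7 and 12.1 RPKM. Both floors lay above every control, so the place of embryos 21 and 49 was not resolved at this depth. The log2 change was −0.25 ± 1.01 over all morulae and 0.84 ± 0.58 without those 2, and it rests on 13 reads in knockouts against 91 in controls. In the morula table a microRNA gene, bta-mir-324, lies within the span of ACADVL.

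ACADM (ENSBTAG00000024240, chromosome 3, 69086075 to 69124464) ran from 0.193 through 0.431 to 0.610 RPKM in knockout blastocysts and from 0 through 0.480 to 0.845 RPKM in control blastocysts. Of the knockouts, 8 of 9 lay below the control median, as did 5.75% of genes with at least 20 control reads. The means were 0.369 ± 0.141 RPKM in knockouts and 0.469 ± 0.232 RPKM in controls, a log2 change of −0.11 ± 0.10, and 3 of the 9 knockouts had only 1 or 2 reads. In knockout morulae ACADM was 0.209 RPKM in embryo 1, 0.215 in embryo 5, and 0 in embryos 21 and 49, from 2 reads in all. In control morulae it was 0.366 RPKM in embryo 39, 0.367 in embryo 41, 0.713 in embryo 54 and 0 in embryo 73. The 3 controls that were read lay above all knockouts, but the floor of 3 reads was not reached by any knockout, so a lower level was not detectable at this depth.

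HADHA and HADHB encode the alpha and beta subunits of the mitochondrial trifunctional protein, which carries out the remaining steps for long chains. The genes are neighbours on chromosome 11, HADHB at 73226234 to 73256305 (ENSBTAG00000010083) and HADHA at 73256623 to 73298910 (ENSBTAG00000015038), with 318 bases between them. HADHA ran from 0.276 through 0.958 to 1.43 RPKM in knockout blastocysts and from 0 through 0.709 to 1.54 RPKM in control blastocysts. HADHB ran from 0.284 through 1.41 to 2.22 RPKM in knockout blastocysts and from 0 through 0.873 to 1.85 RPKM in control blastocysts. Both overlapped between genotypes, as did each of the 18442 genes in blastocysts, and for HADHB 7 of 9 knockouts lay above the control median.

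The log2 change in blastocysts was 0.19 ± 0.13 for HADHA, with means of 0.820 ± 0.415 RPKM in knockouts and 0.706 ± 0.348 RPKM in controls. For HADHB it was 0.29 ± 0.17, with means of 1.28 ± 0.687 RPKM in knockouts and 0.909 ± 0.396 RPKM in controls. Without control 12 and knockout 57 these were 0.09 ± 0.12 for HADHA and 0.15 ± 0.15 for HADHB. The median change over all 6283 tested genes was 0.08 with all libraries and −0.02 without those 2.

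In knockout morulae HADHA was 2.28 RPKM in embryo 1, 0.585 in embryo 5, and 0 in embryos 21 and 49. In control morulae it was 1.15 RPKM in embryo 39, 1.08 in embryo 41, 2.16 in embryo 54 and 1.70 in embryo 73. Embryo 1 was above every control and embryo 5 was below every control. In embryos 21 and 49 the floor of 3 reads stood at 1.81 and 1.60 RPKM, above controls 39 and 41, so their place was not resolved at this depth. The log2 change was −0.39 ± 0.45, and −0.04 ± 0.42 without embryos 21 and 49.

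HADHB in knockout morulae was 0.800 RPKM in embryo 1, 0.274 in embryo 5, 1.69 in embryo 21 and 0 in embryo 49. Among control morulae it was 1.31 RPKM in embryo 39, 0.938 in embryo 41, 1.44 in embryo 54 and 0.685 in embryo 73. The highest knockout value was 2 reads, and they were the only reads of the 8 genes in embryo 21. The log2 change was −0.23 ± 0.42.

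PPARD was the PPAR with enough reads to be followed in these libraries. PPARA and PPARG had 12 reads each over all 26 blastocysts, against 1395 for PPARD. PPARA (ENSBTAG00000008063, chromosome 5, 116438987 to 116507065), known best as the fasting-responsive receptor of liver, had 1 read in knockout blastocysts, in embryo 59, and 11 reads in 5 of 17 controls. In morulae it had 0 reads in knockouts and 3 in controls, all in embryo 39. PPARG (ENSBTAG00000001333, chromosome 22, 56709248 to 56835386), the adipogenic receptor, which in mice is also needed for placental development, had 6 reads in knockout blastocysts (2 in embryo 17 and 4 in embryo 59) and 6 in 3 controls. A difference between genotypes in either gene was not detectable at this depth. In the authors' deposited table PPARG had the smallest p of the 9 genes in blastocysts, with a log2 change of 1.569, a p-value of 0.0795 and an FDR of 0.716.

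PPARD (ENSBTAG00000017542, chromosome 23, 9304237 to 9389925), a broadly expressed receptor, ran from 0.5 through 0.698 to 1.55 RPKM in knockout blastocysts. In control blastocysts it ran from 0 through 0.604 to 0.878 RPKM. The single high knockout was embryo 57, the shallowest blastocyst library, where 8 reads gave 1.55 RPKM, and the other 8 knockouts lay between 0.5 and 0.864 RPKM. The means were 0.748 ± 0.326 RPKM in knockouts and 0.537 ± 0.257 RPKM in controls, a log2 change of 0.15 ± 0.11, which was 0.03 ± 0.09 without embryos 57 and 12.

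In morulae the PPARD values of knockouts all lay below those of controls, but the 4 knockout libraries held too few reads to place them. PPARD was 0.187 RPKM in knockout embryo 1, 0.289 in embryo 5, 0 in embryo 21 and 0.263 in embryo 49. In control morulae it was 0.605 RPKM in embryo 39, 0.370 in embryo 41, 0.479 in embryo 54 and 0.601 in embryo 73. The floor of 3 reads stood at 0.281 RPKM in embryo 1 and 0.289 in embryo 5, under every control, but at 0.892 in embryo 21 and 0.788 in embryo 49, above every control. That floor is for a count of 0, and embryos 1 and 5 held 2 and 3 reads. Pooled, these 2 embryos held 23.3 CPM, with a 95% Poisson interval of 7.57 to 54.4. The controls held 56.9 CPM, with an interval of 47.5 to 67.7. These intervals overlap, but overlap is not a test of a difference, and they cover counting only and not the spread between embryos. With 2 and 3 reads in 2 embryos, no conclusion on a lower level is drawn from them. No other of the 8 genes had all knockout values below all control values, and of the 8512 genes with at least 20 control reads 8.81% did so in this direction.

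The PPARD difference in morulae rested on 6 reads in knockouts, 1 of them in embryo 49 and 0 in embryo 21, against 128 reads in controls. The mean was 0.185 ± 0.130 RPKM in knockout morulae and 0.514 ± 0.112 RPKM in control morulae (SD, n = 4 each), a log2 change of −0.38 ± 0.20 on the log2(RPKM + 1) scale, and −0.08 under quantile scaling across embryos. It was below 0 under every alternative run and with any 1 morula left out. On log2(CPM + 1) with the authors' effective library sizes, which compresses low genes less, it was −1.96 ± 1.54, and −1.19 ± 0.52 without embryos 21 and 49, with adjusted p = 0.933 and 0.339 from limma. On log2(RPKM + 1) the median log2 change in morulae was −0.34, or −0.08 without those 2 libraries, over genes past the filter, which PPARD did not pass. On log2(CPM + 1) the median of all genes tested was −0.73, or −0.22 without those 2 libraries. Summed trophectoderm markers ran from 838 to 9930 CPM in knockout morulae and from 20700 to 23600 in control morulae, and hypoblast markers from 233 to 1030 CPM in knockout morulae and from 1120 to 1800 in control morulae. Their part in the PPARD difference was not tested.

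**Figure D2:**
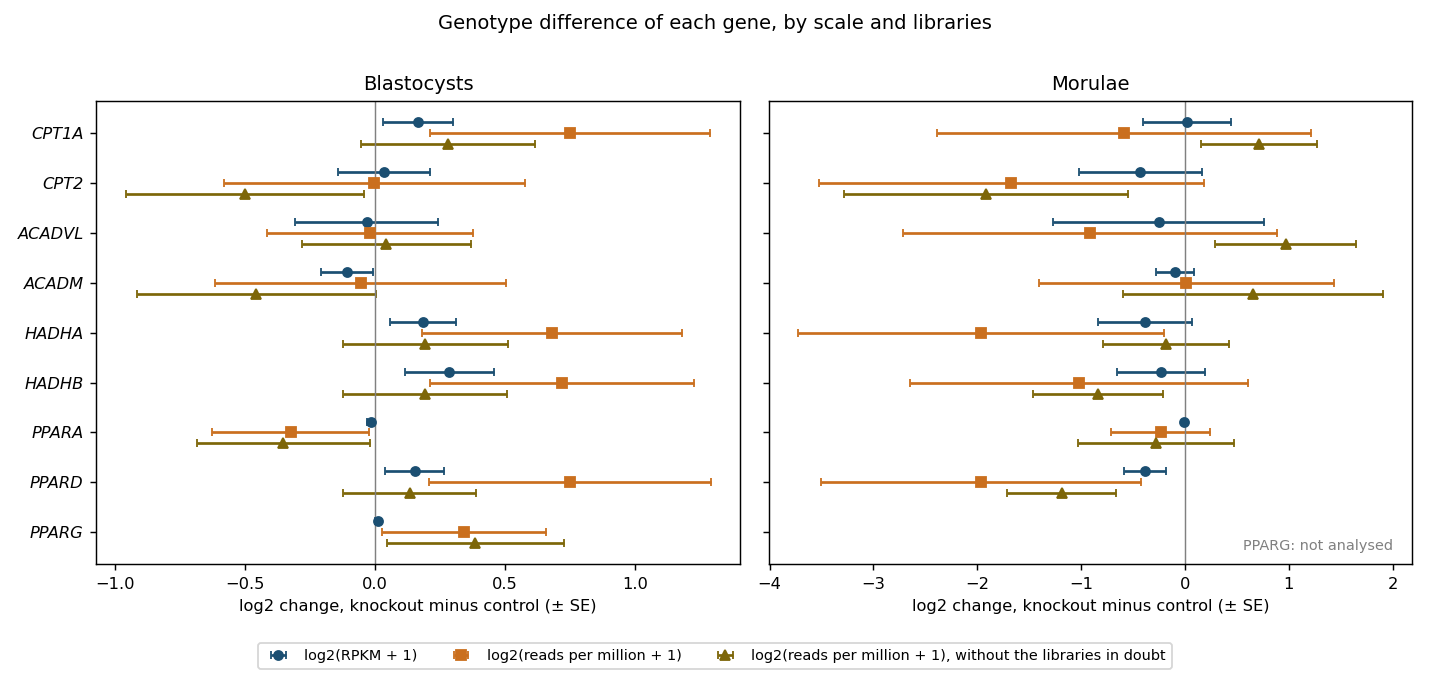
Log2 change, knockout minus control, ± SE (horizontal axis) of each gene in blastocysts and in morulae, on log2(RPKM + 1), on log2(CPM + 1), and on the second scale without the libraries in doubt. In blastocysts CPT1A, HADHA, HADHB and PPARD lie between 0.68 and 0.75 on the second scale and between 0.13 and 0.28 without knockout 57 and control 12.

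The choice of scale changed the size of several differences by more than 1.5 times. On log2(CPM + 1) the blastocyst change was 0.75 ± 0.54 for CPT1A, 0.68 ± 0.50 for HADHA, 0.72 ± 0.51 for HADHB and 0.75 ± 0.54 for PPARD. These 4 genes were listed at 0 in control 12, which on this scale lies several log2 units under the rest. Without control 12 and knockout 57 the values were 0.28 ± 0.34, 0.19 ± 0.32, 0.19 ± 0.31 and 0.13 ± 0.26, in the same order of genes. For CPT2 and ACADM they were −0.50 ± 0.46 and −0.46 ± 0.46, so the 6 enzymes did not share a direction.

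Control blastocyst 12 stood apart for these genes as for many others. It held 893152 reads, but 8 of the 9 genes were listed at 0 there and 24 reads fell in ACADVL. Their sum was 26.9 CPM, where the other 16 control blastocysts ran from 160 to 289 and the knockout blastocysts from 192 to 490. Of 3043 genes with control medians in the range of these genes, 80.1% were at 0 in control 12, against 0% to 8.64% in the other controls.

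**Figure D3:**
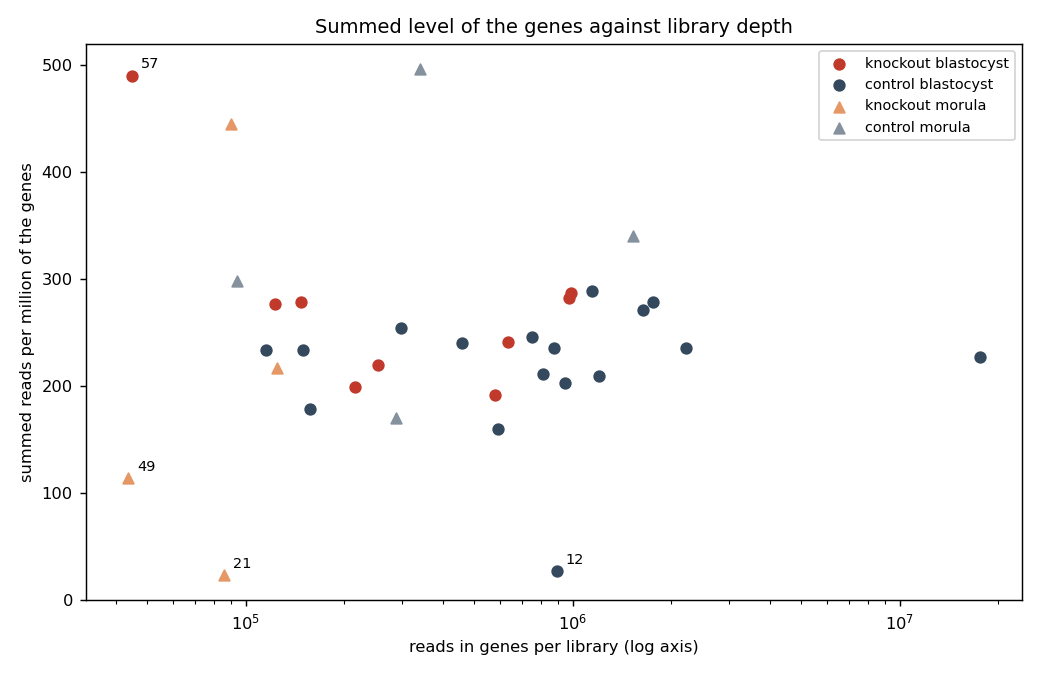
Summed CPM of the 9 genes (8 in morulae; vertical axis) against reads in genes per library (horizontal log axis), one point per embryo, with the 4 libraries in doubt numbered. Control blastocyst 12 lies near 26.9 at 893152 reads and knockout morula 21 at 23.3, while the other blastocysts except knockout 57 lie between 160 and 289.

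Several of the genes moved with another property of the libraries. The bta-mir-2887-1 symbol, which 2 genes carry, took between 0.458% and 1.40% of the reads in control blastocysts 35, 36, 37, 51 and 52. It took 1.85% to 8.63% in knockouts and 3.70% to 5.19% in the 11 other controls apart from embryo 12. These 5 controls, picked by that share after the data were seen, held ACADVL at 9.07 to 13.8 RPKM, above the 1.16 to 8.64 RPKM of the 11 others. The same 5 held PPARD at 0.163 to 0.361 RPKM, where the 11 others held 0.338 to 0.878 RPKM and only control 70 lay within the lower range. CPT1A had a median of 0.374 RPKM in the 5 and 0.665 RPKM in the 11 others, and the ranges overlapped.

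Without these 5 controls and embryo 12, the log2 change between genotypes was 0.13 ± 0.27 for ACADVL, 0.01 ± 0.09 for PPARD and 0.04 ± 0.11 for CPT1A. HADHB had a change of 0.28 ± 0.16, and ACADM had −0.16 ± 0.07 with adjusted p = 0.787 from limma. Over 26 blastocysts the Spearman rho with the bta-mir-2887-1 share was −0.49 for ACADVL, 0.38 for PPARD, 0.38 for CPT1A and 0.33 for HADHA, where the quartiles over tested genes were −0.26 and 0.30. These correlations share library depth and scaling and are descriptions. In morulae the bta-mir-2887-1 share was 0.00675% in control 54 and 4.33% to 5.47% in the other controls. Control 54 was the highest control morula for CPT2, ACADM, ACADVL, HADHA and HADHB, but not for CPT1A, PPARA or PPARD. The part of this library property in the genotype or stage differences was not tested further.

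Stages could be set side by side only as levels, because the tables were normalized separately. CPM were therefore recomputed from whole reads, and no test was made. In knockouts PPARD averaged 69.3 ± 43.0 CPM in 9 blastocysts and 17.3 ± 11.6 in 4 morulae, beside a median log2 difference of 1.35 over the 10501 genes that averaged at least 5 CPM in either stage. Every blastocyst value lay above every morula value, as for 2.46% of those genes. In morula 49, 3 reads would be 68.7 CPM, above the lowest blastocyst at 38.0 CPM, so the separation was not resolved for that library. In morula 21, also in doubt, 3 reads would be 34.9 CPM, under every blastocyst. In controls it averaged 45.9 ± 23.2 in 17 blastocysts and 50.1 ± 13.3 in 4 morulae, and the stages overlapped. Without the libraries in doubt, knockouts held 55.7 ± 14.2 CPM in 8 blastocysts and 23.2 ± 1.29 in 2 morulae, and 7.47% of 10587 genes then separated the stages in this direction. The median difference over those genes was 0.26.

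Of the 6 enzymes, CPT1A, CPT2, HADHA and HADHB averaged lower in control blastocysts than in control morulae. HADHA averaged 29.5 ± 15.8 CPM in control blastocysts and 74.0 ± 31.3 in control morulae, a log2 difference of −1.55, or −1.27 without control 12. CPT1A averaged 35.4 ± 21.2 in control blastocysts and 59 ± 26.1 in control morulae, and CPT2 averaged 26.2 ± 10.8 in control blastocysts and 49.7 ± 28.9 in control morulae. No enzyme separated the control stages completely, beside 0.0687% of genes with every blastocyst below every morula, and the ACADVL averages were close, with 37.5 ± 14.4 in control blastocysts and 38.1 ± 29.2 in control morulae. The median difference between the stages over 10186 genes was −0.14 in controls, and 0.08 without control 12. The larger median shift in knockouts bears on PPARD and the enzymes alike, so no rise particular to PPARD is read from it. There the log2 difference, blastocysts minus morulae, was 2.53 for PPARD and ran from 0.80 for CPT1A to 2.18 for ACADM over the enzymes. Without the libraries in doubt it was 1.19 for PPARD, while CPT2, ACADM and HADHB also stayed above 0. HADHA was then at −0.99, CPT1A at −1.20 and ACADVL at −0.83. Every knockout blastocyst then lay below both morulae for CPT1A and ACADVL, as for 3.23% of genes.

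Between the sexes of blastocysts the same fit called 0 of 6283 genes (0%), and 685 (10.9%) had an unadjusted p under 0.05. Of these, 626 were higher and 59 lower in males, but 277 were higher and 345 lower under quantile scaling, and 427 higher and 208 lower without the libraries in doubt. The median difference, male minus female, was 0.26 over the 6283 genes, −0.01 under quantile scaling and 0.10 without the libraries in doubt. Of the 9 genes HADHA had the smallest unadjusted p, and it is described for that reason. It ran from 0.516 through 0.815 to 1.54 RPKM in 11 males and from 0 through 0.572 to 1.17 RPKM in 15 females. HADHA did not pass the filter behind the median of 0.26. Over the 18442 genes of the run without that filter the median was 0.02. In that run the log2 difference of HADHA was 0.31 ± 0.12, with adjusted p = 0.71 from limma. It was 0.24 ± 0.13 under quantile scaling and 0.27 ± 0.11 without the libraries in doubt. The ranges overlapped. PPARD ran from 0.163 through 0.534 to 0.878 RPKM in males and from 0 through 0.710 to 1.55 RPKM in females, a difference of −0.11 ± 0.11. The interaction of sex and genotype, which rests on 2 male knockouts, called 0 of 6283 genes (0%; 94 genes, 1.5%, had an unadjusted p under 0.05), and its estimates for the 9 genes ran from −0.18 ± 0.61 for ACADVL to 0.19 ± 0.28 for HADHA. The CPT1A estimate of 0.12 ± 0.30 was −0.38 without knockout 75 and 0.62 without knockout 50, the 2 males. Leaving out 1 embryo turned the sign for CPT1A, CPT2, ACADM, ACADVL, HADHB and PPARA.

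The genes differed in how far embryos of one group varied beyond the counting of reads. The variance of reads between embryos was set against that expected if all embryos of a group shared 1 level, where 1 stands for counting alone. In control blastocysts without embryo 12 and without the very deep embryo 37 it was 5.97 for CPT1A, 3.78 for PPARD, 2.72 for ACADVL, 1.97 for HADHA, 1.87 for CPT2, 1.78 for ACADM and 0.992 for HADHB. HADHB thus varied no more than counting allows in those 15 controls, while control 37, with 1.85 RPKM from 864 reads, brought the value for HADHB to 9.90. In knockout blastocysts without embryo 57 it was 7.17 for CPT1A, 4.01 for HADHA, 2.62 for HADHB, 1.93 for CPT2, 1.49 for ACADVL, 1.16 for PPARD and 0.799 for ACADM, so HADHB varied beyond counting there. CPT1A had the highest such value of the enzymes in both genotypes, but the measure grows with reads, and embryo 75 held 86 of its 198 knockout reads. As SD over mean RPKM, CPT1A was highest of the enzymes in those 15 controls, at 51.5%. In knockouts without embryo 57 it was 48.5%, under 62.1% for CPT2, 54.5% for HADHB and 54.1% for HADHA.

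No shared rise and fall of the enzymes was seen across embryos. Few reads per library pull rho toward 0, so a shared change could be missed at this depth. Over 26 blastocysts the 36 pairs had Spearman rho between −0.36 and 0.37 on log2(RPKM + 1), given as descriptions because the pairs share libraries and scaling. HADHA and HADHB, whose proteins act in 1 complex, had a rho of 0.35, and 16.2% of tested genes had a higher rho with HADHA. CPT1A and CPT2, the 2 ends of the carnitine shuttle, had 0.18, and 25.4% of tested genes had a higher rho with CPT1A. PPARD had −0.36 with ACADVL, 0.34 with HADHA and 0.27 with CPT1A. The highest value, 0.37 of CPT2 with PPARA, involves a gene at 0 in most embryos.

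**Figure D4:**
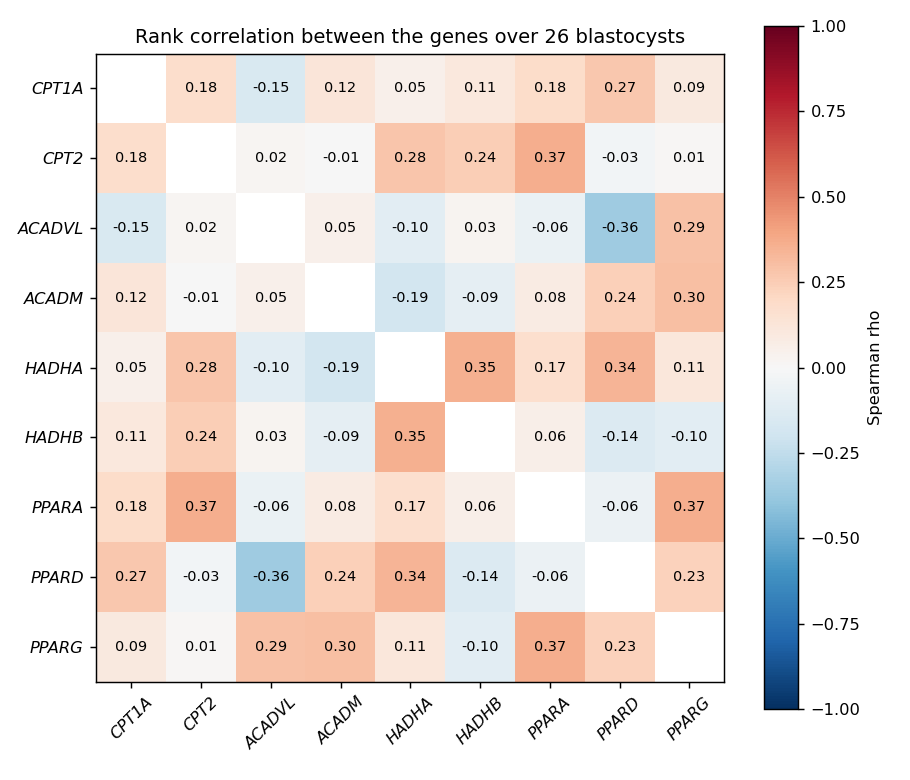
Spearman rho between each pair of the 9 genes over 26 blastocysts on log2(RPKM + 1), as colour from −1 to 1 with the value printed in each cell. Values lie between −0.36 and 0.37, and HADHA with HADHB is 0.35.

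For single members the 3 genes of highest rho are given. They were picked from many, so high values are partly a result of that choice and are not set against the pairs. The genes with the highest rho with CPT2 were LIN7C (0.76), IDH1 (0.69), the NADP-dependent isocitrate dehydrogenase of cytosol and peroxisomes, and RABEP2 (0.69). Those with ACADVL were CD320 (0.84), BTF3L4 (0.83) and MRPS26 (0.83), a mitochondrial ribosomal protein. Those with HADHB were GEMIN7 (0.70), MSX2 (0.66) and NOP2 (0.66). Each is the top 3 of the genes with a symbol among 6282 genes over 26 blastocysts. The median rho over all 6282 was 0.12 for CPT2, 0.16 for ACADVL and 0.05 for HADHB. Without embryos 12 and 57, LIN7C and IDH1 stayed among the top 3 for CPT2, CD320 and MRPS26 for ACADVL, and GEMIN7 for HADHB.

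The rest of the pathway was described by 8 lists drawn from textbook knowledge. No gene of these lists passed the test in either stage, beside the 0% of all genes. In blastocysts the median log2 change was −0.20 for fatty acid synthesis and the malonyl-CoA brake, where 9 of 12 tested genes were below 0, and −0.09 for peroxisomal beta-oxidation, where 4 of 5 were below 0. It was −0.07 for mitochondrial beta-oxidation enzymes (7 of 11 below 0), −0.09 for acyl-CoA synthetases (3 of 4 below 0) and −0.06 for PPAR targets outside beta-oxidation (4 of 6 below 0). It was 0.17 for carnitine shuttle and uptake (3 of 5 above 0), 0.06 for PPAR partners and coregulators (7 of 10 above 0) and 0.06 for lipid droplet storage and lipolysis (6 of 8 above 0). Over all genes 62.3% were above 0. Without embryos 12 and 57 the lipid droplet median was −0.06, the synthesis median −0.10 and the median of all genes −0.02.

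Single genes of these lists are given as the 3 with the smallest unadjusted p of a list, of which a few are described. NRIP1, a corepressor of nuclear receptors that restrains fatty acid oxidation genes in mouse fat, averaged 1.89 ± 1.49 RPKM in knockout blastocysts and 0.638 ± 0.606 RPKM in control blastocysts, a log2 change of 0.75 ± 0.29 with adjusted p = 0.994 from limma. SLC27A4, a fatty acid transporter with acyl-CoA synthetase activity, had a mean of 5.74 ± 3.72 RPKM in knockout blastocysts, against 3.48 ± 1.72 RPKM in control blastocysts, with 8 of 9 knockouts above the control median. Both overlapped between genotypes, as did every gene in blastocysts, and NRIP1 was at 0 in 2 knockouts and 7 controls. ELOVL1, an elongase of very long chains, had a log2 change of −0.54 ± 0.23, and PRKAB2, a regulatory subunit of AMP-activated kinase, had −0.47 ± 0.22. MCAT, of the same list, went the other way at 0.41 ± 0.25. All 3 overlapped between genotypes, with adjusted p = 0.994 from limma for each.

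In morulae the list medians were −0.76 for carnitine shuttle and uptake (4 of 4 below 0), −0.73 for peroxisomal beta-oxidation (3 of 4), −0.62 for mitochondrial beta-oxidation enzymes (5 of 7), −0.52 for lipid droplet storage (7 of 8), −0.44 for acyl-CoA synthetases (3 of 4), −0.42 for PPAR targets (4 of 5) and −0.39 for fatty acid synthesis (6 of 10). Only the PPAR partners had a median above 0, at 0.11 with 7 of 9 above 0. The median of all genes was −0.34, with 30.8% above 0. Without knockout morulae 21 and 49 the mitochondrial beta-oxidation median was 0.16, the PPAR partners 0.49 and all genes −0.08.

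SCD, the stearoyl-CoA desaturase, averaged 0.130 ± 0.259 RPKM in knockout morulae and 4.88 ± 1.62 RPKM in control morulae, with 3 of 4 knockouts at 0 and no overlap of values, as for the 8.81% of genes above. The floor of 3 reads was 1.56 and 1.60 RPKM in knockouts 1 and 5, under the lowest control at 3.33, but 4.94 and 4.37 RPKM in knockouts 21 and 49. Its log2 change was −2.08 ± 0.42, with adjusted p = 0.0859 from limma, and −2.07 ± 0.37 without knockouts 21 and 49. CRAT, the carnitine acetyltransferase, averaged 0.160 ± 0.320 RPKM in knockout morulae and 1.76 ± 0.432 RPKM in control morulae, a change of −1.44 ± 0.33 (adjusted p = 0.138), or −1.23 ± 0.30 without those libraries. Its values too did not overlap, beside the same 8.81%, but only 1 read fell in the 4 knockouts and their floors of 1.87 to 5.93 RPKM exceeded the lowest control at 1.42. SCD and CRAT reached 1 RPKM only in control morulae, so both passed the filter only through the group where they are high. Such genes could only come out lower in knockouts, and their p-values are given as descriptions. PNPLA2, the adipose triglyceride lipase, averaged 8.30 ± 4.56 RPKM in knockout morulae and 19.2 ± 12 RPKM in control morulae. Its change was −2.04 ± 0.67 (adjusted p = 0.504 from limma), or −2.05 ± 0.47 without knockouts 21 and 49. Its values overlapped, at 1.65 to 11.9 RPKM in knockouts and 7.95 to 35.9 in controls, with floors of 15.7 and 13.8 in knockouts 21 and 49. The change was −1.69 without knockout 1, the only male knockout, which held 1 read. Without control 73, the only female control, it was −2.40. ECHS1, the short-chain enoyl-CoA hydratase of the mitochondrial spiral, was higher on average, with 11.9 ± 3.07 RPKM in knockout morulae and 6.55 ± 6.54 RPKM in control morulae, a change of 2.15 ± 0.84 (adjusted p = 0.647), or 1.96 ± 0.84 without knockouts 21 and 49. It overlapped between genotypes, and the change was 0.69 without control 73, which was at 0, and 3.6 without knockout 1.

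Markers of other cell types were summed beside these genes. Liver and adipose markers summed to at most 3.46 CPM in a knockout blastocyst and 3.99 in a control blastocyst, with medians of 0 in both groups and 5 of 8 listed markers in the table. In morulae only 2 of these markers were in the table, and APOB and PLIN1 were at 0 in every knockout. Cumulus and granulosa markers, which would mark maternal cells carried over, had medians of 32.6 CPM in knockout blastocysts, 32.3 in control blastocysts, 0 in knockout morulae and 30.7 in control morulae. Oviduct epithelium markers had medians of 31.4 CPM in knockout blastocysts, 9.08 in control blastocysts, 23.2 in knockout morulae and 9.58 in control morulae. They reached 1757 CPM in knockout morula 21 and 2209 CPM in control blastocyst 12, both libraries in doubt, and elsewhere at most 294 CPM, in knockout blastocyst 31. WFDC2 led the sum in these 3 embryos. The part of such RNA in the values of these genes was not tested.

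The authors' deposited comparison likewise gave no call among these genes. Over all genes, 15 of 18442 (0.0813%) in the authors' deposited table had an FDR under 0.05 in blastocysts and 27 of 14878 (0.181%) in morulae. In the authors' deposited table the FDR of the 9 genes in blastocysts ran from 0.716 to 0.9999, and that of the 8 genes in morulae was 0.935 throughout. The log2 change of PPARD in the authors' deposited table was 0.32 in blastocysts and −1.41 in morulae.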

How the data were processed

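Polyadenylated RNA was sequenced from 34 single embryos, and groups came from titles and characteristics. Per the labels, RNA was extracted with a column kit and stranded libraries were made. Per the submitters' processing notes, FastQC, featureCounts, edgeR and ARS-UCD1.2 were used, while the aligner and versions are not given in the sources used here. The authors deposited RPKM per gene and embryo, with genotype log2 changes, p-values and FDR, in 1 table a stage, per the file headers. No unit stands in the morula headers, so RPKM was inferred there from the values. RPKM times the gene span gave whole reads for 100% of values within 0.01 reads, from which library totals and CPM (per 1e+06 reads in genes) were computed.

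Values were tested with limma 3.58.1 in R 4.3.3 on log2(RPKM + 1), robust and two-sided, with Benjamini-Hochberg adjustment over all genes tested at 0.05. The fit had sex as a term and was tested on simulated data. Tables and figures used Python 3.11.15. Because RPKM are normalized values, no count model gave the main result, and voom on the recovered reads was an alternative. A pseudocount of 1 understates changes of low genes, so fits on log2(CPM + 1) with the effective library sizes, with at least 5 reads in as many embryos as the smaller group has, were set beside it. A floor of 3 reads stands for what a count of 0 allows, and Wilson or Poisson error covers counting only. P-values measure the spread between single embryos labelled as separate samples.

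The members and lists were chosen with earlier results of these data known. Named genes were the 9 members, in each pathway list the genes passing or else the 3 with the smallest unadjusted p, and for each member past the blastocyst filter the 3 genes of highest Spearman rho. A gene that this rule names is not reported here. Cell type markers were summed. No libraries were identical, with a highest Pearson correlation of 0.961 in blastocysts and 0.879 in morulae. Other pseudocounts, filters, scalings, weights and subsets of embryos were tried.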

Additional observations from a re-analysis of the deposited data

Results flagged for a closer look

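Of 24 sets of values of 1 gene in 1 group of embryos, 6 held an embryo far from the others by Dixon's criterion. The nominal rate of 1 in 20 supposes normally spread values. A gene read in only 1 embryo of a group is always flagged, so the count is not set against that rate. The control blastocysts, a group too large for the critical values used, were not tested. Knockout blastocyst 75 had 1.58 RPKM of CPT1A from 86 reads, where the next knockout had 0.845 RPKM. Knockout blastocyst 57 had 1.55 RPKM of PPARD from 8 reads in a library of 44879, where the next knockout had 0.864 RPKM. Control morula 41 had 0.349 RPKM of CPT1A from 6 reads, where the next control had 0.940 RPKM.

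The other 3 are counts of 1 to 3 reads in genes at 0 in most embryos. Knockout blastocyst 59 had 0.0153 RPKM of PPARA from 1 read and control morula 39 had 0.0238 RPKM of PPARA from 3 reads, the only reads of that gene in their groups. Knockout blastocyst 17 had 0.0742 RPKM of PPARG from 2 reads, where knockout 59 had 0.0329 RPKM from 4 reads in a deeper library.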

How the results depend on the processing

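In blastocysts no gene was called for genotype under the 12 planned and added alternatives or with any of 26 embryos left out (0 to 0), at a smallest adjusted p of 0.158 with array weights. In morulae no gene was called with any of 8 embryos left out (0 to 0), but 44 were with a pseudocount of 0.1, 33 without the sex term, 1 by voom on recovered reads, 1 without knockouts 21 and 49, and 4 when these were left out on CPM. For sex, 16 genes were called with quantile scaling, 127 with array weights and 27 without control 12 and knockout 57, and leaving out 1 embryo gave 0 to 1. For the interaction 17 were called with no filter, 3 with array weights, and 0 to 0 with 1 embryo left out. The cause was not tested.

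Of the members' genotype values, 321 of 342 in blastocysts and 106 of 135 in morulae moved by less than 1 SD of the fit. CPT2 and ACADVL changed sign in both stages with single embryos left out, and HADHA, CPT1A and ACADM did so in morulae. Quantile scaling turned CPT2, ACADM, ACADVL, HADHA and HADHB above 0 in morulae, with a median of all genes of 0.05. Settings on CPM without the libraries in doubt and without blastocysts of low bta-mir-2887-1 share were chosen after seeing the data. No paired analysis was possible because each embryo has a number of its own. The planned search for promoter motifs was not run. Depth limits morulae most, where the knockouts held 74 reads of these genes.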
